A study of Homo sapiens with 82 samples.

Results

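The genes described here encode the cytochrome P450 (CYP) enzymes, the UDP-glucuronosyltransferases (UGT) and the sulfotransferases (SULT) of HT29 cells, and they were chosen by symbol alone. Every row of the gene count tables with the symbol of a CYP gene, a UGT1 or UGT2 gene or a SULT gene was taken, with no cut on expression. The rule found 88 of 51838 rows, of which 57 were CYP, 18 UGT and 13 SULT genes. It also caught CYP51P2 and CYP51P3, which are pseudogenes of CYP51A1.

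HT29 is an established colorectal adenocarcinoma line. Cells received 10 μM GW3965 or 10 μM T0901317, both agonists of the liver X receptors (LXR), 10 μM rosiglitazone, an agonist of the nuclear receptor PPARG, or the DMSO carrier alone, and mRNA was sequenced after 24 and 48 h. Each of the 8 groups had 4 libraries, with separate DMSO libraries for each time. All groups, DMSO included, had been moved to phenol red-free McCoy's 5A medium with charcoal/dextran-treated serum before treatment, and all came from 1 cell line, so the values describe HT29 and no other cells. The 4 libraries of a group were not traced to named cultures, and the p-values measure the spread between these libraries.

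The total count ran from 21044798 to 51332656 per library, and the 88 genes took between 0.163% and 0.274% of it. Levels are given as CPM, the count of a gene relative to the library total after TMM scaling (library size factors from edgeR). Colon epithelium markers were present in every library, with EPCAM at 243 to 359 CPM, KRT20 at 245 to 1505 CPM and CDX2 at 6.43 to 20.6 CPM. Of the 8 colon markers, the called changes were KRT20 higher with GW3965 at 24 h and with rosiglitazone at both times, VIL1 higher with both LXR agonists at 48 h, and CDX2 and VIL1 lower with rosiglitazone at 48 h. Of the hepatocyte markers, ALB reached at most 0.0649 CPM and APOA1 at most 0.244 CPM, whereas SERPINA1 lay between 36.5 and 170 CPM. The leukocyte markers PTPRC and CD3E stayed at or below 0.155 CPM, and the fibroblast marker COL1A1 lay between 2.42 and 8.52 CPM. In bulk libraries, fewer cells with a transcript and less of it per cell cannot be told apart. The treatments were visible in known targets: the LXR target ABCA1 rose 24.5-fold with GW3965 and 13.1-fold with T0901317 at 24 h, and the PPARG target ANGPTL4 rose 32.4-fold with rosiglitazone. The 5 control genes (ABCA1, ABCG1, SREBF1, PDK4 and ANGPTL4) were not specific to 1 drug. GW3965 raised PDK4 at 24 h and all 5 at 48 h, and T0901317 raised PDK4 at 48 h. Rosiglitazone lowered ABCA1 at 24 h and raised ABCG1 at 48 h.

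CYP enzymes are haem proteins that insert oxygen into drugs, fatty acids, sterols, retinoids and vitamin D, mostly in the endoplasmic reticulum with electrons from the reductase POR. UGT and SULT enzymes then attach glucuronic acid or sulfate, which makes many products soluble and ready for export. In liver and gut the pregnane X receptor (PXR, gene NR1I2) senses drugs and raises CYP3A4, CYP2B6 and transporters such as ABCB1 and ABCC2, while the aryl hydrocarbon receptor (AHR) raises CYP1A1 and CYP1B1. T0901317 has been described as a ligand of PXR as well as of LXR, and the labels name no PXR or AHR ligand as a positive control, so the drug responses below are read against DMSO only.

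Of the 88 genes, 34 were expressed, which means that they reached 1 CPM in all 4 libraries of at least 1 group. By role these were 5 of 14 fatty acid CYPs (CYP2U1, CYP4F3, CYP4F11, CYP4F12 and CYP4V2), 7 of 20 xenobiotic CYPs of families 1 to 3 (CYP1B1, CYP2B6, CYP2C18, CYP2D6, CYP2S1, CYP2W1 and CYP3A5), all 3 vitamin D CYPs, 1 of 4 retinoid CYPs (CYP26B1), 2 of 7 sterol CYPs (CYP27A1 and CYP51A1), CYP20A1 and the pseudogene CYP51P2. None of the 6 steroid hormone CYPs was expressed. All 9 UGT1A genes but none of the 9 UGT2 genes reached the cut, as did SULT1A1 to SULT1A4 and SULT2B1. CYP11B1, CYP11B2, CYP7B1 and SULT4A1 had no count in any of the 32 libraries, where 3 counts over all of them would be 0.00243 CPM. A further group was barely detected, and 25 genes in all, including those 4, never went above 10 counts in a library. After the filter on low counts, 46 genes were tested at 24 h and 49 at 48 h, and 36 were tested at neither time.

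A gene was called where the edgeR quasi-likelihood test gave a Benjamini-Hochberg adjusted p under 0.01 over all genes tested and a fold change of at least 1.5. At 24 h, GW3965 and T0901317 each raised 3 of 46 tested genes, CYP4F3, CYP4F11 and CYP4F12 in both cases, against 0.992% of all genes called higher with GW3965 and 0.689% with T0901317. Both left 0 called lower (all genes: 0.344% and 0.0321%), with 4 genes under an unadjusted p of 0.05 in that direction for each drug and 0 called by DESeq2. Rosiglitazone raised 8, of which 4 belong to the UGT1A locus (all genes: 1.81%), and lowered 1, CYP2W1 (all genes: 3.13%). Of the 8, CYP26B1 passed the filter on low counts only through the rosiglitazone libraries.

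At 48 h GW3965 raised 11 of 49 tested genes (all genes: 8.27%) and lowered 1, CYP3A5 (all genes: 7.78%). T0901317 raised 16, of which 8 belong to the UGT1A locus (all genes: 6.99%), and lowered 0 (all genes: 7.28%), with 9 under an unadjusted p of 0.05 in that direction and 0 called by DESeq2. Rosiglitazone raised 18, of which 9 belong to the UGT1A locus (all genes: 4.79%), and lowered 7 (all genes: 7.4%). In total 30 of the 52 genes tested at either time were called with at least 1 drug, 21 of them outside the UGT1A locus, and 22 were called with none. The share of all genes called with at least 1 drug was not computed, so these totals have no baseline. All 3 drugs were compared with the same DMSO libraries at each time.

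**Figure D1:**
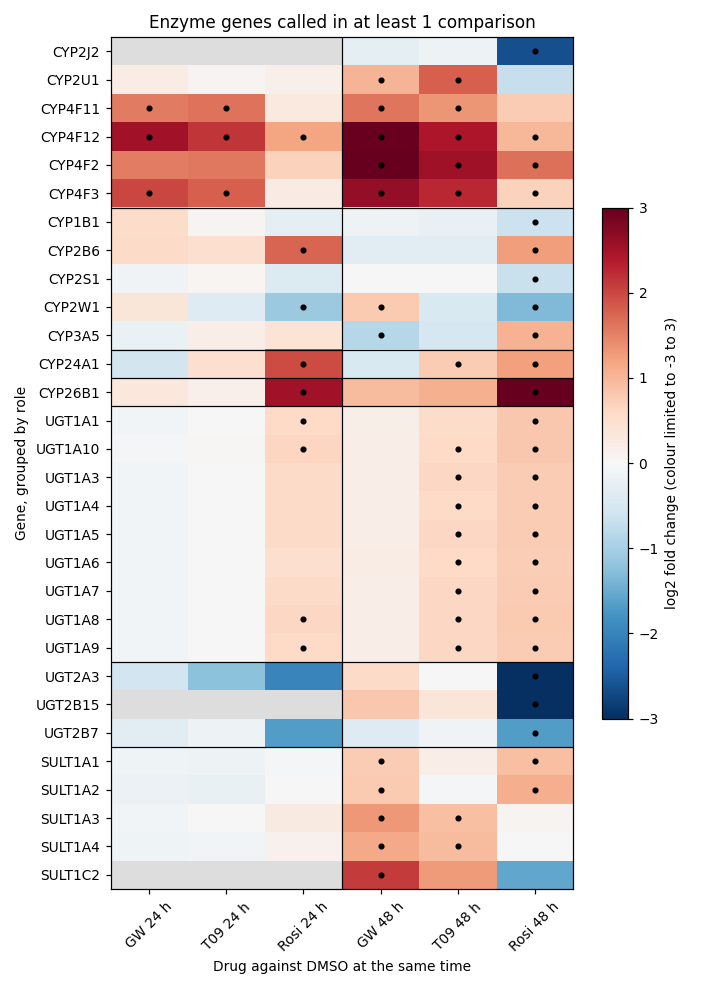
Log2 fold change against DMSO of the 30 called genes (rows, ordered by role) with each drug at 24 and 48 h (columns); colour is limited to the range from -3 to 3, black dots mark calls and grey cells genes not tested. The CYP4F rows are called with both LXR agonists at both times or at 48 h, while of the 9 UGT1A rows 4 are called with rosiglitazone at 24 h, all 9 at 48 h, and 8 with T0901317 at 48 h.

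The fatty acid CYPs held the largest fold changes of the expressed genes under the LXR agonists. The CYP4F enzymes hydroxylate fatty acids, leukotrienes and the side chain of vitamin E and K at or near the terminal carbon. CYP4F12, which takes arachidonic acid and some drugs, read 4.21, 3.24, 4.66 and 4.74 CPM in the DMSO libraries at 24 h, 25.3, 23, 24.6 and 24.1 CPM with GW3965 and 16.4, 16.8, 21.8 and 20.2 CPM with T0901317. Rosiglitazone gave 9.13, 10.4, 9.63 and 9.45 CPM. All drug libraries lay above all DMSO libraries. The log2 fold changes were 2.52 (SE 0.11, adjusted p = 5.4e-12) with GW3965, 2.15 (SE 0.11, adjusted p = 1e-10) with T0901317 and 1.19 (SE 0.11, adjusted p = 2e-07) with rosiglitazone.

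After 48 h the DMSO libraries read 8.19, 7.31, 8.53 and 8.90 CPM for CYP4F12, against 62.0, 64.1, 64.1 and 65.4 CPM with GW3965 and 41.9, 45.7, 48.8 and 40.3 CPM with T0901317. The rosiglitazone libraries read 14.3, 17.0, 17.2 and 17.2 CPM. Again no drug library overlapped DMSO, and the GW3965 libraries lay above all others. The log2 fold changes were 2.96 (SE 0.08, adjusted p = 1.8e-15), 2.42 (SE 0.08, adjusted p = 3.9e-14) and 0.99 (SE 0.08, adjusted p = 1.7e-08) in the same order of drugs. CYP4F12 was the only fatty acid CYP called with every drug at both times.

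CYP4F3, whose enzyme inactivates leukotriene B4, read 1.54, 1.49, 1.58 and 0.949 CPM with DMSO at 24 h. It rose to 5.36, 6.03, 6.03 and 4.92 CPM with GW3965 (log2 fold change 2.00, SE 0.15, adjusted p = 1.9e-08) and to 5.02, 4.08, 5.44 and 4.63 CPM with T0901317 (1.79, SE 0.15, adjusted p = 2.1e-07). The rosiglitazone libraries, at 1.46, 1.94, 1.63 and 1.64 CPM, overlapped DMSO (0.25, adjusted p = 0.31). After 48 h DMSO read 1.37, 2.76, 1.75 and 2.45 CPM, GW3965 12.1, 13.0, 15.2 and 11.3 CPM and T0901317 9.80, 9.23, 10.5 and 10.3 CPM. The LXR agonist libraries did not overlap DMSO (2.63, SE 0.18, adjusted p = 1.2e-09 with GW3965 and 2.26, SE 0.18, adjusted p = 9.8e-09 with T0901317). With rosiglitazone the libraries read 2.68, 3.15, 4.78 and 2.86 CPM, and the call (0.70, SE 0.20, adjusted p = 0.0087) was lost without DMSO replicate 1 or 3 or rosiglitazone replicate 2 or 3, with estimates as low as 0.48 and adjusted p up to 0.0497.

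CYP4F11, which acts on long-chain fatty acids, read 0.759, 0.572, 0.588 and 0.335 CPM with DMSO at 24 h, 1.57, 1.94, 1.42 and 1.78 CPM with GW3965 and 1.73, 1.74, 1.63 and 1.95 CPM with T0901317. Each LXR agonist group lay wholly above DMSO (log2 fold change 1.56, SE 0.25, adjusted p = 0.00041 and 1.63, adjusted p = 0.00052). At 48 h the DMSO libraries read 1.42, 1.2, 0.813 and 0.485 CPM, GW3965 2.99, 2.78, 3.01 and 3.06 CPM and T0901317 2.68, 1.98, 2.87 and 2.18 CPM, again without overlap (1.60, adjusted p = 1.6e-05 and 1.32, adjusted p = 0.00017). The rosiglitazone libraries read 1.07 to 2.04 CPM at 48 h and overlapped DMSO (0.76, adjusted p = 0.023). DESeq2, unlike edgeR, called CYP4F11 higher with rosiglitazone at 48 h.

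CYP4F2, the best known vitamin E and K hydroxylase, was the lowest of these rows in counts, with 2 to 6 counts per DMSO library at 48 h. There it read 0.178, 0.150, 0.0493 and 0.143 CPM with DMSO, 0.603, 1.47, 1.58 and 1.45 CPM with GW3965 and 0.700, 0.668, 0.993 and 0.665 CPM with T0901317. Every agonist library exceeded every DMSO library, and the log2 fold changes were 3.30 (SE 0.37, adjusted p = 6.1e-07) and 2.55 (SE 0.39, adjusted p = 2.6e-05). At 24 h the groups did not overlap either, but the test did not call them (1.54, adjusted p = 0.019 and 1.58, adjusted p = 0.03). Rosiglitazone at 48 h gave 0.417, 0.357, 0.299 and 0.553 CPM (1.65, SE 0.43, adjusted p = 0.0052), a call that was lost without DMSO replicate 2, 3 or 4 or rosiglitazone replicate 1 or 4 (1.36 to 1.73, adjusted p 0.0103 to 0.0238) and with library size as the only scaling (1.47, adjusted p = 0.0103). The CYP4F genes are close paralogs in 1 cluster on chromosome 19, and reads that match several of them could be split or shared by the counting, so the values of single CYP4F rows are uncertain to that degree.

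**Figure D2:**
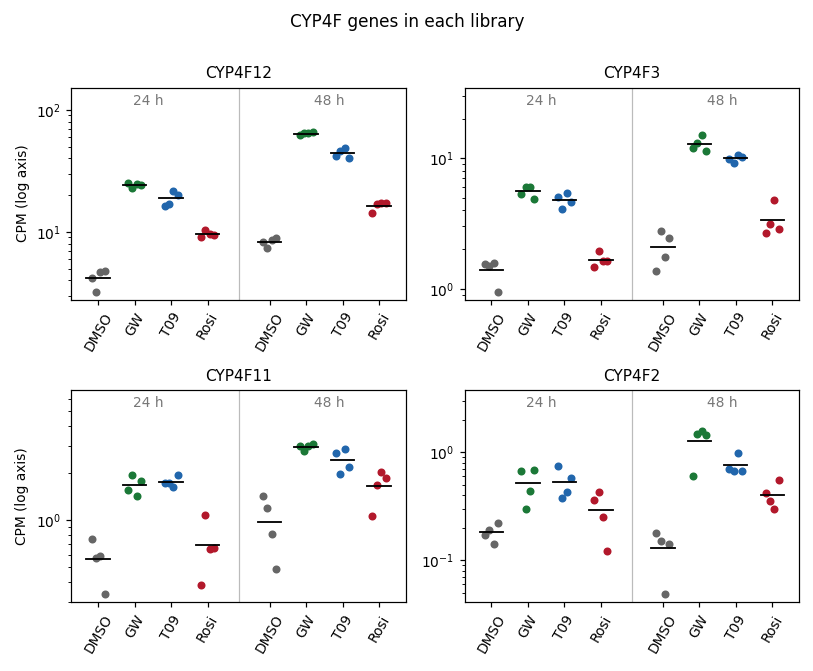
CPM on a log axis of CYP4F12, CYP4F3, CYP4F11 and CYP4F2 in each of the 32 libraries (points) by drug and time. The GW3965 and T0901317 points of each gene lie above the DMSO points of the same time point.

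The windows before the start sites of CYP4F2, CYP4F3 and CYP4F11 are shown since these rows rose with both LXR agonists at 48 h. They are the 250 bases before the RefSeq start (assembly GRCh38.p14), at chr19:15898075-15898324 on the minus strand for CYP4F2, chr19:15641062-15641311 on the plus strand for CYP4F3, and chr19:15934868-15935117 and chr19:15934530-15934779 on the minus strand for CYP4F11, which has an upstream and a downstream start in the table. Capitals mark the nuclear receptor half-sites AGGTCA or GGGTCA on the printed strand or their reverse complements.
CYP4F2: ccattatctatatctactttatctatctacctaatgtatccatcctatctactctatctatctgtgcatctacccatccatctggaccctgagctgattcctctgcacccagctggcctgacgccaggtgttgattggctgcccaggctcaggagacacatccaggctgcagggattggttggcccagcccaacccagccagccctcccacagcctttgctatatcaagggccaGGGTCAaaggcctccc
CYP4F3: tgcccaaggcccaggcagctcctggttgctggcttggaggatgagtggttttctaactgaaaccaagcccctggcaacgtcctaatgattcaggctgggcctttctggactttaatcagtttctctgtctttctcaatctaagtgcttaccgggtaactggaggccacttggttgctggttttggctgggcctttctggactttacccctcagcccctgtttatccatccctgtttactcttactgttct
CYP4F11 upstream start: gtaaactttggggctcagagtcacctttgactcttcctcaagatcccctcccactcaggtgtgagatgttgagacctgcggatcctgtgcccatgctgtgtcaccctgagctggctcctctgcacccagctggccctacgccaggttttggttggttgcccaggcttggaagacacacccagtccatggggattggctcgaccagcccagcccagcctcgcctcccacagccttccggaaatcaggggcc
CYP4F11 downstream start: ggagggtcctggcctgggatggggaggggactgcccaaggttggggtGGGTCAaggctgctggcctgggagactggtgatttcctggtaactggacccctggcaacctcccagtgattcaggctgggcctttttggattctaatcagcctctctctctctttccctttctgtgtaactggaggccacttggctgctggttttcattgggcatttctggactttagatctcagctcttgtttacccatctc

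A half-site was found for CYP4F2, starting 16 bases before the start, and for the downstream start of CYP4F11, starting 203 bases before it, and none was found for CYP4F3 or the upstream start of CYP4F11. GGGTCA was present on either strand in 12.1% of the 34788 promoter windows of this length in the table and AGGTCA in 12%. The LXR-type repeat of half-sites with a spacer of 4 bases, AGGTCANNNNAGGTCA, was in 5 of all windows (0.0144%) and in none of the 63 genes of the 88 that had an entry. CYP4F12 had no entry. The window of CYP4F2 shared 46.6% of aligned bases with that of CYP4F3 and 63.0% with that of the upstream CYP4F11 start. ChIP-seq peaks near these genes were not analysed here.

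CYP2U1, an arachidonic acid hydroxylase, was called with both LXR agonists at 48 h and with none of the drugs at 24 h. DMSO read 0.623, 0.988, 0.690 and 0.571 CPM, GW3965 1.77, 1.34, 1.45 and 1.24 CPM and T0901317 2.53, 2.70, 2.47 and 2.24 CPM. The 3 groups did not overlap (log2 fold change 1.01, SE 0.24, adjusted p = 0.0017 and 1.79, SE 0.23, adjusted p = 3.6e-06). Rosiglitazone gave 0.469, 0.357, 0.217 and 0.748 CPM, overlapping DMSO (-0.69, adjusted p = 0.062). At 24 h all 16 libraries lay between 0.573 and 1.48 CPM. For T0901317 the response at 48 h exceeded that at 24 h by 1.71 on the log2 scale in the test of the difference.

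CYP2J2, an epoxygenase of arachidonic acid, fell with rosiglitazone at 48 h on few counts. The DMSO libraries held 15, 2, 27 and 11 counts and the rosiglitazone libraries 2, 0, 4 and 2, so the groups overlapped. The summed counts, 8 against 55, gave a ratio of 0.152 (95% counting interval 0.0624 to 0.320), and the test gave adjusted p = 0.0072. Leaving out DMSO replicate 1, 3 or 4 or rosiglitazone replicate 1, 2 or 4 ended the call (log2 fold change -2.70 to -2.17, adjusted p up to 0.0394). Over all tested fatty acid CYPs at 48 h, 5 of 7 rose with GW3965 (median log2 fold change 1.60, all genes: 8.27%). With T0901317 5 of 7 rose (median 1.79, all genes: 6.99%). With rosiglitazone 3 rose and 1 fell (median 0.70, all genes: 4.79% and 7.4%), and DESeq2 called 4 and 1. The medians of all genes lay between -0.01 and 0.01. The members of this group were chosen by symbol and role, and no set test was made.

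For the xenobiotic CYPs of families 1 to 3, which metabolize most drugs and many carcinogens, the LXR agonists made few calls and rosiglitazone more. At 24 h 0 of 11 tested genes were called with GW3965 and 0 with T0901317 (4 and 3 under an unadjusted p of 0.05, 0 by DESeq2 for each), against CYP2B6 higher and CYP2W1 lower with rosiglitazone. At 48 h CYP2W1 rose and CYP3A5 fell with GW3965, 0 of 13 were called with T0901317 (6 under an unadjusted p of 0.05, 0 by DESeq2), and rosiglitazone raised CYP2B6 and CYP3A5 and lowered CYP1B1, CYP2S1 and CYP2W1. Shares of all genes called higher and lower at 48 h were 8.27% and 7.78% with GW3965. They were 6.99% and 7.28% with T0901317 and 4.79% and 7.4% with rosiglitazone. The 1 of 13 in each direction with GW3965 was near its shares. With rosiglitazone at 24 h the shares were 1.81% and 3.13%.

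CYP3A5, a CYP3A enzyme of gut and liver, read 54.0, 55.4, 56.0 and 56.9 CPM with DMSO at 24 h. GW3965 gave 51.6, 47.6, 44.5 and 51.4 CPM (log2 fold change -0.19, adjusted p = 0.07), T0901317 61.3, 66.5, 65.1 and 64.4 CPM (0.21, adjusted p = 0.059) and rosiglitazone 72.9, 68.4, 73.4 and 78.5 CPM (0.40, adjusted p = 4.1e-05, a 1.32-fold change below the cutoff). The DMSO libraries had the narrowest range of these groups and none of the drug groups overlapped them. After 48 h the DMSO libraries read 153, 131, 175 and 165 CPM, GW3965 90.7, 92.7, 83.4 and 79.9 CPM, T0901317 106, 115, 116 and 106 CPM and rosiglitazone 245, 295, 395 and 349 CPM. Both LXR agonist groups lay wholly below DMSO and the rosiglitazone group wholly above it. The fall with GW3965 was called (-0.85, SE 0.11, adjusted p = 4.2e-06) as was the rise with rosiglitazone (1.04, SE 0.11, adjusted p = 5.3e-07), while the difference with T0901317 was 0.711-fold and below the cutoff (-0.49, adjusted p = 0.0013).

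CYP2B6, which oxidizes drugs such as bupropion and is a textbook target of PXR and of the related receptor CAR, read 0.930, 1.2, 1.01 and 0.865 CPM with DMSO at 24 h and 3.05, 3.57, 3.57 and 3.06 CPM with rosiglitazone. All rosiglitazone libraries lay above all others of that time (log2 fold change 1.74, SE 0.18, adjusted p = 7.2e-07). GW3965 gave 1.29, 1.31, 1.59 and 1.70 CPM (0.57, adjusted p = 0.099) and T0901317 1.94, 1.31, 0.973 and 1.37 CPM (0.51, adjusted p = 0.25). The GW3965 libraries all lay above DMSO without a call, and those of T0901317 overlapped it. By 48 h the level in DMSO was 8.01, 8.03, 9.22 and 8.62 CPM and rosiglitazone 17.6, 19.9, 21 and 22.5 CPM, again without overlap (1.26, SE 0.10, adjusted p = 7.8e-09). The GW3965 libraries, at 6.79, 6.93, 7.45 and 6.29 CPM, lay below DMSO (-0.30, adjusted p = 0.019), and the T0901317 libraries, at 6.26, 6.23, 6.62 and 8.16 CPM, overlapped it (-0.31, adjusted p = 0.017).

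CYP3A4, the main drug-oxidizing CYP of liver and gut and the defining PXR target, was close to the detection limit. At 24 h the DMSO libraries held 0, 3, 10 and 1 counts, and the gene did not pass the filter on low counts. In the 48 h libraries DMSO read 0.356, 0.329, 1.08 and 0.257 CPM, GW3965 0.179, 0.491, 0.325 and 0.137 CPM, T0901317 0.253, 0.495, 0.794 and 0.504 CPM and rosiglitazone 0.469, 0.649, 0.734 and 1.43 CPM. Each drug group overlapped DMSO, and no difference was detectable at this depth (log2 fold change -0.91, adjusted p = 0.16, -0.03, adjusted p = 0.97, and 0.64, adjusted p = 0.31). CYP3A4, CYP3A5 and CYP3A7 are close paralogs whose reads the counting could have split, and the count of the CYP3A4 row was at most 0.00992 times that of the CYP3A5 row in any of the 32 libraries, so the CYP3A4 row is uncertain.

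The windows before CYP3A4 and CYP3A5 are shown since they carry the PXR-type everted repeat, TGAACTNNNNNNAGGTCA, on the printed strand (capitals). They lie at chr7:99784185-99784434 and chr7:99679997-99680246, both on the minus strand (RefSeq, GRCh38.p14).
CYP3A4: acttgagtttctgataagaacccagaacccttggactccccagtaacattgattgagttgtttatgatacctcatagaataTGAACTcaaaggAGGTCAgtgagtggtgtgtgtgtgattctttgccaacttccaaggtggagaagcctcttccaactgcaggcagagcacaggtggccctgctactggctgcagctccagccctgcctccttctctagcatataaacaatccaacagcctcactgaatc
CYP3A5: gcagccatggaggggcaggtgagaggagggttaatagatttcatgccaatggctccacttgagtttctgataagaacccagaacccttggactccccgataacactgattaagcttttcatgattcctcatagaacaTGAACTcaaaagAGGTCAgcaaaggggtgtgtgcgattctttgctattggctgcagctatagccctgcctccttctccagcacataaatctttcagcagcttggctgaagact

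The repeat starts 169 bases before the CYP3A4 start and 113 bases before that of CYP3A5. It was found on either strand in 3 of 34788 windows (0.00862%), and its second part is the half-site AGGTCA counted above. The windows shared 52.6% of aligned bases. Of these genes, CYP3A5 moved in opposite directions with GW3965 and rosiglitazone, and for CYP3A4 no change was detectable. The match is a description of the letters in these windows.

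The PXR list held 22 genes: the receptor NR1I2 and textbook targets, among them CYP2B6, CYP3A, CYP2C and UGT1A rows, the exporters ABCB1 and ABCC2, and the partner POR. Of the 13 tested at 24 h, 1 rose with GW3965 (ABCC2, all genes: 0.992%) and none fell, and the median log2 fold change was 0.15. With T0901317 0 were called (5 under an unadjusted p of 0.05, all higher; DESeq2 called 1, ABCC2), with a median of 0.16. With rosiglitazone 2 rose (CYP2B6 and UGT1A1, all genes: 1.81%), with a median of 0.42. At 48 h, with 15 tested, GW3965 raised NR1I2 and ABCC2 and lowered CYP3A5 (median 0.20, all genes: 8.27% higher and 7.78% lower). The GW3965 calls in each direction were near these shares. T0901317 raised ABCB1, ABCC2, UGT1A3 and UGT1A4 (median 0.20, all genes: 6.99% higher). Rosiglitazone raised 6, which were CYP2B6, CYP3A5, UGT1A1, UGT1A3, UGT1A4 and POR (median 0.64, all genes: 4.79% higher). The UGT1A rows of this list share counts, so 2 of the 4 T0901317 calls and 3 of the 6 rosiglitazone calls come from 1 locus. The medians of all genes lay between -0.02 and 0.01 throughout.

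The genes called in the list thus differed by drug. ABCC2, an exporter of glucuronides, read 0.881, 1.05, 0.612 and 1.09 CPM with DMSO at 24 h, 2.65, 2.05, 1.86 and 2.06 CPM with GW3965 (log2 fold change 1.26, SE 0.26, adjusted p = 0.0046) and 2.38, 1.69, 2.49 and 1.83 CPM with T0901317 (1.23, adjusted p = 0.011). At 48 h it read 0.386, 0.389, 0.320 and 0.456 CPM with DMSO, 4.20, 4.04, 3.81 and 4.76 CPM with GW3965 and 2.22, 2.13, 2.12 and 2.26 CPM with T0901317, with no overlap between the groups (3.44, SE 0.20, adjusted p = 9.2e-11 and 2.49, SE 0.20, adjusted p = 1.1e-08). The rosiglitazone libraries at 48 h, 0.260 to 0.618 CPM, overlapped DMSO. At 24 h DESeq2 called ABCC2 lower with rosiglitazone and edgeR did not. In DMSO, ABCC2 was called lower at 48 h than at 24 h. The T0901317 libraries read 1.69 to 2.49 CPM at 24 h and 2.12 to 2.26 CPM at 48 h, so the larger fold at 48 h went with the lower DMSO level. ABCC2 was thus called higher with both LXR agonists at 48 h, while CYP2B6, in the same list, was called against DMSO with neither at either time.

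NR1I2 itself read 0.148, 0.629, 0.419 and 0.285 CPM with DMSO at 48 h and 0.938, 1.45, 1.06 and 1.14 CPM with GW3965, without overlap (1.61, SE 0.32, adjusted p = 0.0004). With T0901317 (0.297 to 0.806 CPM) and rosiglitazone (0.182 to 0.245 CPM) it overlapped DMSO. ABCB1, the efflux pump P-glycoprotein, rose with T0901317 at 48 h from a mean of 0.481 to 1.46 CPM (1.59, SE 0.34, adjusted p = 0.00091). POR, which feeds electrons to these CYPs, rose with rosiglitazone at 48 h from a mean of 146 to 289 CPM (0.98, SE 0.10, adjusted p = 1.8e-07).

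**Figure D3:**
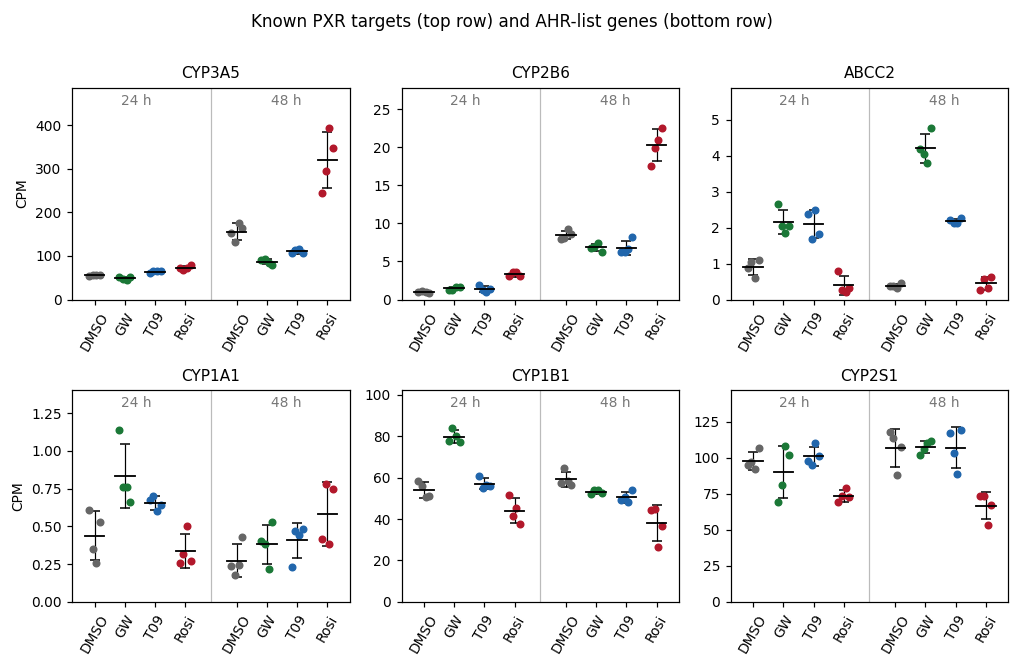
CPM of 3 PXR list genes (CYP3A5, CYP2B6 and ABCC2, upper row) and 3 AHR list genes (CYP1A1, CYP1B1 and CYP2S1, lower row) in each library (points) with the mean and SD of the 4 libraries of a group (bars). CYP3A5 and CYP2B6 are highest with rosiglitazone at 48 h, ABCC2 is highest with GW3965 at 48 h, and CYP1A1 overlaps between rosiglitazone and DMSO at both times.

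CYP1A1, the defining AHR target, stayed low with every drug. At 24 h it read 0.612, 0.350, 0.259 and 0.530 CPM with DMSO, 1.14, 0.764, 0.759 and 0.659 CPM with GW3965, 0.673, 0.704, 0.601 and 0.640 CPM with T0901317 and 0.256, 0.314, 0.501 and 0.273 CPM with rosiglitazone. The GW3965 libraries all lay above DMSO, but the gene was not called (log2 fold change 0.92, 95% confidence interval 0.34 to 1.5, adjusted p = 0.067), nor was it with T0901317 (0.57, adjusted p = 0.46). In the 48 h set DMSO read 0.237, 0.180, 0.246 and 0.428 CPM, GW3965 0.402, 0.382, 0.217 and 0.529 CPM, T0901317 0.233, 0.470, 0.441 and 0.484 CPM and rosiglitazone 0.417, 0.778, 0.380 and 0.748 CPM. All drug groups overlapped DMSO, and the largest estimate, with rosiglitazone, was not called (1.06, SE 0.37, adjusted p = 0.03). The window before CYP1A1 is shown since it holds the AHR core letters GCGTG (capitals) at chr15:74725529-74725778 on the minus strand (RefSeq, GRCh38.p14).
CYP1A1: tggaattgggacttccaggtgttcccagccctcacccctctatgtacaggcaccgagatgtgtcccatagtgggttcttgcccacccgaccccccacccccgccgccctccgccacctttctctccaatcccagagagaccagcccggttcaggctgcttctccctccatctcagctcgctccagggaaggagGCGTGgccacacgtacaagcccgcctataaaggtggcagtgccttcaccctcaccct

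The match starts 57 bases before the start, and GCGTG was found on either strand in 32.2% of all windows. CYP1B1, which oxidizes polycyclic hydrocarbons and estradiol, read 58.2, 56.0, 50.6 and 51.3 CPM with DMSO at 24 h and 77.5, 83.9, 80.3 and 77.2 CPM with GW3965. These did not overlap, but at 1.47-fold the difference was just below the cutoff (log2 fold change 0.56, SE 0.08, adjusted p = 7e-05), and without DMSO replicate 1 it passed (0.60). T0901317 gave 60.8, 54.8, 56.3 and 56.0 CPM and rosiglitazone 51.7, 41.4, 45.2 and 37.7 CPM, both overlapping DMSO. At 48 h DMSO read 57.6, 64.6, 58.2 and 56.6 CPM, and all drug libraries were lower: 52.1, 53.8, 53.9 and 52.5 CPM with GW3965, 49.2, 50.5, 48.2 and 53.9 CPM with T0901317 and 44.6, 45, 26.4 and 36.4 CPM with rosiglitazone. Only the fall with rosiglitazone was called (-0.64, SE 0.11, adjusted p = 0.00015), and without rosiglitazone replicate 3 it missed the fold cutoff (-0.50, adjusted p = 2.39e-05). No source used here states whether the counting used strand, so reads of CYP1B1 and of its antisense row CYP1B1-AS1 cannot be told apart.

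CYP2S1, an AHR-responsive CYP of epithelia, was lowered by rosiglitazone at 48 h. DMSO read 118, 113, 88.0 and 107 CPM and rosiglitazone 73.1, 73.2, 53.5 and 67.0 CPM, without overlap (log2 fold change -0.68, SE 0.11, adjusted p = 4.9e-05). Without rosiglitazone replicate 3 the estimate was -0.58 (adjusted p = 0.000119), just below the fold cutoff. At 24 h DMSO read 95, 96.9, 92.2 and 107 CPM and rosiglitazone 69.1, 73.5, 79.0 and 72.4 CPM, a 0.752-fold difference below the cutoff (-0.41, adjusted p = 0.0072). The LXR agonists gave 68.9 to 110 CPM at 24 h and 88.4 to 119 CPM at 48 h and overlapped DMSO.

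The AHR list held 14 genes, of which 12 were tested. At 24 h 0 were called with GW3965 (5 higher under an unadjusted p of 0.05, median 0.07) and 0 with T0901317 (2 higher, median 0.05), DESeq2 called 0 for both, and rosiglitazone raised UGT1A1 alone (median -0.09). At 48 h GW3965 raised ALDH3A1 and AHRR and lowered AHR, TIPARP and NFE2L2 (median 0.09). T0901317 raised NQO1 and UGT1A6 and lowered the same 3 genes (median 0.25), and rosiglitazone raised ALDH3A1, UGT1A1 and UGT1A6 and lowered CYP1B1 and CYP2S1 (median 0.32). AHR, the receptor, fell from a mean of 126 CPM to 67.3 CPM with GW3965 (-0.91, adjusted p = 1.6e-08) and 74.6 CPM with T0901317 (-0.76, adjusted p = 1.6e-07) and was at 120 CPM with rosiglitazone. TIPARP, an AHR target that represses the receptor, fell from 62.2 to 31.1 CPM with GW3965 (-1.0, adjusted p = 5.5e-09) and 40.2 CPM with T0901317 (-0.63, adjusted p = 1.9e-06). In DMSO itself, AHR, TIPARP and NFE2L2 were called higher at 48 h than at 24 h. Their falls with the LXR agonists thus stood against a DMSO level above that of 24 h. AHRR, another repressor, rose with GW3965 (0.61, adjusted p = 7.6e-06). Members of the list thus moved in both directions with each drug at 48 h. Shares of all genes called higher and lower there were 8.27% and 7.78% with GW3965. They were 6.99% and 7.28% with T0901317 and 4.79% and 7.4% with rosiglitazone. With rosiglitazone at 24 h the share called higher was 1.81%. UGT1A1 also stands in the PXR list and NQO1 in the NRF2 list.

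CYP2W1, a CYP found mainly in fetal gut and colon tumours, moved in opposite directions with GW3965 and rosiglitazone. At 24 h DMSO read 7.95, 10.1, 9.29 and 9.01 CPM, GW3965 7.13, 11.9, 13.2 and 14.8 CPM, T0901317 7.46, 5.35, 8.90 and 5.61 CPM and rosiglitazone 4.28, 3.31, 4.82 and 4.33 CPM. Only rosiglitazone stood clear of DMSO (log2 fold change -1.12, SE 0.20, adjusted p = 0.00034). At 48 h DMSO read 7.69, 8.42, 7.25 and 8.27 CPM, GW3965 14.5, 13.8, 14.0 and 12.2 CPM, T0901317 6.73, 5.15, 4.39 and 6.61 CPM and rosiglitazone 3.59, 3.70, 2.99 and 2.41 CPM. No drug group overlapped DMSO. GW3965 raised it (0.78, SE 0.13, adjusted p = 5e-05), rosiglitazone lowered it (-1.31, SE 0.14, adjusted p = 6.4e-07), and the difference with T0901317 was 0.726-fold and below the cutoff (-0.46, adjusted p = 0.0083). The other expressed xenobiotic CYPs, CYP2C18 and CYP2D6, were not called with any drug. CYP2D6 has a near-identical pseudogene, and its row is uncertain for that reason.

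Of the vitamin D CYPs, the inactivating 24-hydroxylase CYP24A1 was called and the activating enzymes CYP2R1 and CYP27B1 were not. At 24 h CYP24A1 read 1.86, 1.37, 1.65 and 1.0 CPM with DMSO and 5.36, 5.77, 5.54 and 6.42 CPM with rosiglitazone, with a log2 fold change of 1.96 (SE 0.15, adjusted p = 2e-08). GW3965 gave 0.861, 0.928, 1.10 and 1.14 CPM (-0.55, adjusted p = 0.084) and T0901317 2.02, 1.97, 2.43 and 1.92 CPM. The rosiglitazone libraries lay far above the rest, and the T0901317 libraries lay above DMSO without a call. By 48 h DMSO read 1.81, 1.98, 2.17 and 1.97 CPM, GW3965 1.45, 1.45, 1.39 and 1.47 CPM (-0.46, adjusted p = 0.055), T0901317 3.29, 2.80, 3.53 and 3.79 CPM (0.76, SE 0.18, adjusted p = 0.002) and rosiglitazone 6.93, 4.35, 3.48 and 3.87 CPM (1.23, SE 0.18, adjusted p = 2e-05). T0901317 and rosiglitazone stood above DMSO and GW3965 below it. In the list of vitamin D receptor genes (VDR, CYP24A1, TRPV6, CYP3A4 and SLC30A10), CYP24A1 was the only one called higher with a drug. The calcium channel TRPV6 fell with GW3965 (-1.88) and T0901317 (-1.07) at 48 h, against a DMSO level that was called higher than at 24 h.

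CYP26B1, which degrades retinoic acid, was the only retinoid CYP tested against DMSO. It read 0.220, 0.0636, 0.0471 and 0.140 CPM with DMSO at 24 h and 0.641, 0.743, 0.594 and 0.818 CPM with rosiglitazone (log2 fold change 2.52, SE 0.42, adjusted p = 0.00023). At 48 h it read 0.178, 0.359, 0.197 and 0.0856 CPM with DMSO and 1.77, 2.69, 1.96 and 1.43 CPM with rosiglitazone (3.25, SE 0.43, adjusted p = 7.1e-06). Rosiglitazone libraries were higher than all DMSO libraries at both times. The LXR agonist groups overlapped DMSO at both times, with means of 0.389 and 0.422 CPM at 48 h (0.94, adjusted p = 0.13 and 1.06, adjusted p = 0.086). DMSO counts were 2 to 12 per library. At 24 h no DMSO or LXR agonist library exceeded 0.229 CPM, and the gene passed the filter on low counts only through the rosiglitazone libraries. Its entry into the test and its rise at 24 h are thus not independent. DESeq2 did not call CYP26B1 with rosiglitazone at 24 h.

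The sterol CYPs were not called with any drug: 0 of 3 tested were called at 24 h and at 48 h by edgeR and by DESeq2, and at most 1 of the 3 had an unadjusted p under 0.05 in a comparison. CYP51A1, which demethylates lanosterol on the way to cholesterol, read 105, 108, 113 and 106 CPM with DMSO at 48 h and 85.9, 90.2, 79.2 and 95.4 CPM with GW3965. The groups did not overlap, but the difference of 0.813-fold was below the cutoff (log2 fold change -0.30, adjusted p = 0.00038). T0901317 gave 98.1, 108, 97.6 and 108 CPM and rosiglitazone 102, 97.4, 102 and 103 CPM. At 24 h DMSO read 102, 104, 110 and 101 CPM, GW3965 112, 107, 97 and 102 CPM, T0901317 105, 110, 88.3 and 100 CPM and rosiglitazone 96.8, 101, 97.5 and 101 CPM, and every drug group had libraries at or inside the DMSO range. CYP27A1, which starts the acidic bile acid route, was highly uneven with rosiglitazone at 48 h, at 2.32 CPM in replicate 1 and 0.357, 0.380 and 0.358 CPM in the others, against 0.712 to 2.22 CPM with DMSO.

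The UGT1A genes share their last exons, and their rows could not be read as separate genes. The lowest of the 9 UGT1A rows in a library made up between 63.4% and 100% of the count of each of the others. In the rows as deposited, rosiglitazone raised 4 of 9 at 24 h (UGT1A1, UGT1A8, UGT1A9 and UGT1A10) and all 9 at 48 h, and T0901317 raised all but UGT1A1 at 48 h. The fold changes were near the cutoff and near each other. With T0901317 at 48 h they ran from 1.46-fold (UGT1A1, not called) to 1.54-fold (UGT1A8), with UGT1A3, UGT1A5 and UGT1A9 also at 1.54-fold, UGT1A7 at 1.53-fold and UGT1A4 at 1.52-fold. With rosiglitazone they ran from 1.67-fold (UGT1A6) to 1.76-fold (UGT1A10) at 48 h and from 1.41-fold (UGT1A6) to 1.55-fold (UGT1A10) at 24 h. Library size as the only scaling ended the 4 calls of rosiglitazone at 24 h and those of UGT1A3, UGT1A5, UGT1A6 and UGT1A9 at 48 h on the fold cutoff. With GW3965 0 were called at either time (0 and 9 under an unadjusted p of 0.05, 0 by DESeq2). With all UGT1A rows summed into 1, the locus was called with T0901317 and rosiglitazone at 48 h, but at 24 h it missed the cutoff with rosiglitazone (log2 fold change 0.58, adjusted p = 6.62e-07). The UGT1A3 and UGT1A5 rows differed by at most 0.257% of the row in any library.

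UGT1A6, which glucuronidates small phenols such as paracetamol, read 149, 145, 151 and 146 CPM with DMSO at 48 h, 218, 237, 230 and 211 CPM with T0901317 and 256, 249, 221 and 261 CPM with rosiglitazone. Both groups lay above DMSO (log2 fold change 0.60, SE 0.07, adjusted p = 7.3e-07 and 0.74, SE 0.07, adjusted p = 7.6e-08). GW3965 gave 161, 177, 158 and 194 CPM, above DMSO but far below the cutoff. At 24 h DMSO read 159, 156, 164 and 151 CPM, GW3965 166, 144, 143 and 141 CPM, T0901317 159, 151, 148 and 163 CPM and rosiglitazone 209, 233, 216 and 230 CPM. Only rosiglitazone stood apart, and its 1.41-fold difference was below the cutoff (0.50, adjusted p = 5.9e-06). Without T0901317 replicate 2 or 3 the call at 48 h was lost on the fold cutoff (0.57 and 0.58), as happened for UGT1A10 without DMSO replicate 2 or 4 or T0901317 replicate 2 or 3 and for UGT1A4 and UGT1A7 without T0901317 replicate 2. For rosiglitazone at 24 h, UGT1A1 and UGT1A9 were lost without DMSO or rosiglitazone replicate 2 or 4 (0.56 to 0.58).

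To set aside the shared part, the lowest UGT1A row of each library was subtracted from the others. This step was added after the overlap was seen. The lowest row itself averaged 113 CPM in DMSO, 107 under GW3965, 113 under T0901317 and 168 under rosiglitazone at 24 h, and 113, 129, 173 and 191 CPM at 48 h in the same order. For UGT1A10, an isoform of the gut, the remainder averaged 56.0, 54.2, 59.7 and 94.0 CPM at 24 h and 48.8, 56.1, 70.1 and 94.2 CPM at 48 h. It rose 1.68-fold (adjusted p = 3.23e-09) and 1.93-fold (adjusted p = 1.57e-09) with rosiglitazone at 24 and 48 h, and with T0901317 at 48 h was 1.44-fold higher, below the cutoff (adjusted p = 2.71e-06). For UGT1A1, the bilirubin enzyme, the remainder averaged 20.3, 18.5, 19.6 and 31.5 CPM at 24 h and 22.4, 23.6, 24.2 and 45.5 CPM at 48 h, and it rose 1.55-fold (adjusted p = 5.03e-07) and 2.03-fold (adjusted p = 2.95e-10) with rosiglitazone. For UGT1A6 it averaged 44.9, 42.2, 42.4 and 54.0 CPM at 24 h and 35.0, 43.2, 50.7 and 56.0 CPM at 48 h, and it rose 1.60-fold with rosiglitazone at 48 h (adjusted p = 5.05e-07). With T0901317 at 48 h the UGT1A6 remainder was 1.45-fold higher (adjusted p = 6.2e-06), also just below the cutoff, while those of UGT1A8, another gut isoform (1.72-fold, adjusted p = 0.000164), and UGT1A9 (3.01-fold, adjusted p = 0.00301) were called and those of UGT1A4 (1.28-fold) and UGT1A7 (1.40-fold) were below the cutoff. The UGT1A9 remainder rested on 6 to 25 counts per DMSO library and 40 to 65 per T0901317 library. With rosiglitazone at 48 h the remainders of UGT1A4 (1.94-fold), UGT1A7 (1.97-fold), UGT1A8 (2.52-fold) and UGT1A9 (3.2-fold) were called as well.

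**Figure D4:**
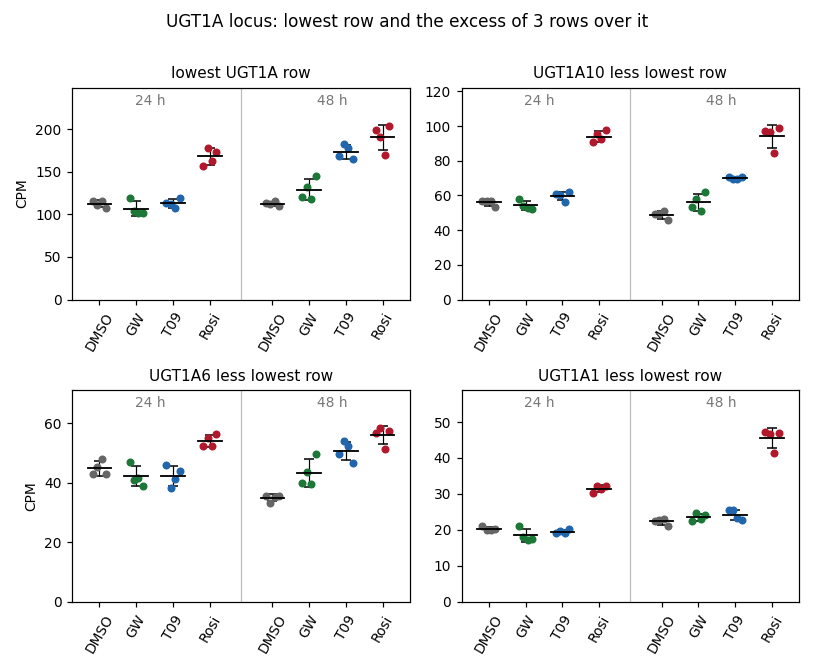
CPM of the lowest UGT1A row and of UGT1A10, UGT1A6 and UGT1A1 less the lowest row in each library (points), by drug and time. The shared part is higher with rosiglitazone at both times and with T0901317 at 48 h, and the UGT1A1 remainder is called with rosiglitazone only.

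The UGT2 genes, which conjugate steroids, bile acids and morphine-like drugs, were low throughout, and 3 of 9 were tested at 48 h. All 3 fell with rosiglitazone (all genes: 7.4% called lower). UGT2B15, an androgen glucuronidating enzyme, held 15, 12, 24 and 17 counts with DMSO and 3, 0, 0 and 0 with rosiglitazone, a ratio of summed counts of 0.0460 (95% counting interval 0.00926 to 0.140, adjusted p = 1.4e-05). UGT2A3, a bile acid enzyme of gut and liver, held 8, 18, 21 and 29 counts against 5, 0, 1 and 0, a ratio of 0.0824 (0.0293 to 0.188, adjusted p = 0.0003). UGT2B7, the morphine enzyme, read 0.831, 0.449, 0.937 and 0.599 CPM against 0.156, 0.130, 0.217 and 0.390 CPM (log2 fold change -1.67, SE 0.41, adjusted p = 0.0032). No rosiglitazone library overlapped DMSO for the 3 genes. The UGT2B7 call was lost without DMSO replicate 1 or 3 or rosiglitazone replicate 1 or 2 (-1.58 to -1.49, adjusted p 0.0105 to 0.015). With the LXR agonists 0 of 3 were called at 48 h (1 under an unadjusted p of 0.05 with GW3965, 0 with T0901317, 0 by DESeq2). UGT2B rows are close paralogs, and reads could be split between them. Colon markers moved in the same libraries: KRT20 rose with rosiglitazone at 48 h from a mean of 333 to 1122 CPM (1.75), CDX2 and VIL1 fell, the other 5 of 8 were not called, and the summed level of the 8 was 17676 to 18696 CPM with DMSO and 18617 to 22260 CPM with rosiglitazone. The part of these changes in the UGT2 values was not tested.

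The SULT1A genes divided into rows that rose with GW3965 and rosiglitazone and rows that rose with the LXR agonists. SULT1A2, a phenol sulfotransferase, read 15.7, 22.0, 15.4 and 11.5 CPM with DMSO at 48 h, 29.2, 24.2, 26.6 and 31.9 CPM with GW3965 (log2 fold change 0.79, SE 0.17, adjusted p = 0.00076), 13.7, 20.5, 13.0 and 14.8 CPM with T0901317 and 28.2, 28.9, 40.5 and 39.3 CPM with rosiglitazone (1.08, SE 0.17, adjusted p = 5.4e-05). The GW3965 and rosiglitazone libraries lay above all DMSO libraries and the T0901317 libraries among them. At 24 h all 16 libraries lay between 7.44 and 20.1 CPM with full overlap. SULT1A1, the main phenol sulfotransferase, averaged 35.6 CPM in DMSO at 48 h, 60.5 under GW3965, 41 under T0901317 and 66.3 under rosiglitazone. It was called with GW3965 (0.77, SE 0.14, adjusted p = 0.00018) and rosiglitazone (0.90, SE 0.14, adjusted p = 5.4e-05). SULT1A1 and SULT1A2 are near-identical neighbours, and the ratio of their rows stayed between 0.350 and 0.533 over the 32 libraries, so they are uncertain as separate genes.

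SULT1A3 and SULT1A4, near-identical copies for catecholamines such as dopamine, rose with the LXR agonists and not with rosiglitazone. SULT1A3 read 31.7, 32.6, 32.5 and 32.2 CPM with DMSO at 48 h, 83.7, 84.9, 71.6 and 77.6 CPM with GW3965 (1.30, SE 0.12, adjusted p = 3.7e-08), 67.7, 58.6, 62.1 and 53.9 CPM with T0901317 (0.91, SE 0.12, adjusted p = 3.4e-06) and 44.5, 35.6, 25.3 and 31.2 CPM with rosiglitazone (0.08, adjusted p = 0.62). The LXR agonist groups lay above DMSO and the rosiglitazone group around it. SULT1A4 averaged 17.1 CPM in DMSO, 37.6 under GW3965 (1.13, SE 0.11, adjusted p = 1.5e-07), 32.9 under T0901317 (0.94, SE 0.11, adjusted p = 1.8e-06) and 17.4 under rosiglitazone. The row of SLX1A, a nuclease gene next to SULT1A3, averaged 18, 41.7, 32.5 and 19.5 CPM in the same order and kept a ratio of 1.54 to 2.04 to SULT1A3 over the 32 libraries (Pearson r of log2 CPM 0.988, given as a description). Reads of the overlapping SULT1A3 and SLX1A rows cannot be told apart. With SULT1A1 to SULT1A4 summed into 1 row, the sum was called with GW3965 and rosiglitazone at 48 h and not with T0901317. These calls depend on the 1.5-fold cutoff. T0901317 and rosiglitazone were not compared directly, so the calls do not show a difference between them.

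SULT1C2, a gut and kidney phenol sulfotransferase, rose with GW3965 at 48 h from 0.386, 0.150, 0.148 and 0.0285 CPM to 1.03, 0.382, 0.931 and 0.667 CPM, with overlap between the groups (2.09, SE 0.60, adjusted p = 0.0075). The call was lost without DMSO replicate 2, 3 or 4 or GW3965 replicate 1, 3 or 4 (1.74 to 2.14, adjusted p 0.0129 to 0.0287). SULT2B1, which sulfates cholesterol and oxysterols, averaged 48.4 CPM with DMSO at 24 h and 61.4 CPM with GW3965, with no overlap but a 1.27-fold difference (0.34, adjusted p = 0.0023). It was not called in any comparison. Over the 6 SULT1 genes tested at 48 h, 5 rose with GW3965 (median log2 fold change 0.96), 2 with T0901317 (median 0.56) and 2 with rosiglitazone (median 0.22). Of all genes, 8.27%, 6.99% and 4.79% were called higher in the same order of drugs. At 24 h 0 of 4 were called with each drug by edgeR and DESeq2, and only rosiglitazone had any (1) under an unadjusted p of 0.05.

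**Figure D5:**
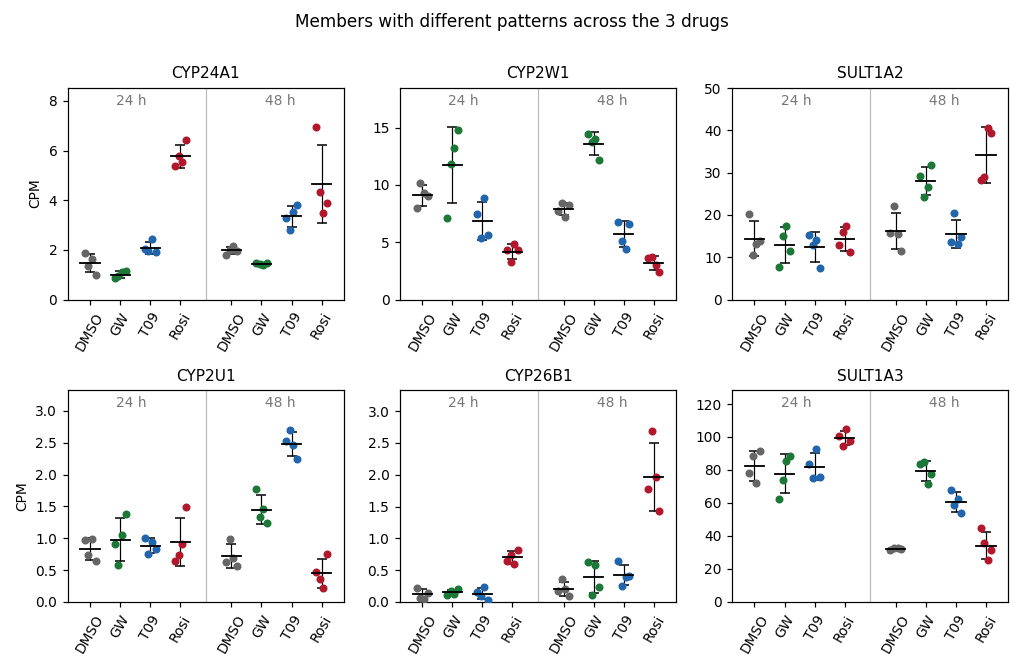
CPM of 6 genes whose response differed by drug (CYP24A1, CYP2W1, SULT1A2, CYP2U1, CYP26B1 and SULT1A3) in each library (points), by drug and time. CYP24A1, CYP26B1 and SULT1A2 are high with rosiglitazone at 48 h, CYP2U1 and SULT1A3 with the LXR agonists, and CYP2W1 is high with GW3965 and low with rosiglitazone.

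GW3965 and T0901317 were compared directly at the same dose at each of the 2 times. At 24 h 1 of 46 tested genes differed (all genes: 0.358%): CYP24A1 was higher with T0901317 (log2 difference 1.05, SE 0.17, adjusted p = 0.0016). At 48 h 3 of 49 differed (all genes: 2.07%). CYP24A1 was higher with T0901317 (1.22, SE 0.18, adjusted p = 0.00021), and CYP2W1 (-1.25, SE 0.13, adjusted p = 6.9e-06) and SULT1A2 (-0.86, SE 0.17, adjusted p = 0.0018) were lower. In none of these 4 comparisons did the libraries of the agonists overlap. Several other differences passed the p threshold but not the fold cutoff: CYP4F12 at 48 h was 0.691-fold with T0901317 (-0.53, 95% confidence interval -0.68 to -0.38, adjusted p = 0.0001), SULT1A1 0.677-fold (adjusted p = 0.0089) and UGT1A6 1.30-fold (adjusted p = 0.00086), and CYP1B1 at 24 h was 0.715-fold (adjusted p = 0.0013).

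In the PXR list, CYP3A5 was higher with T0901317 than with GW3965 by 0.40 at 24 h (95% confidence interval 0.28 to 0.52, adjusted p = 0.00047) and by 0.36 at 48 h (0.12 to 0.59, adjusted p = 0.033), below the fold cutoff at both times. ABCC2 was lower with T0901317 at 48 h (-0.95, adjusted p = 0.00042), the only one of the 15 tested list genes that was called, and 0 of 13 were called at 24 h (2 under an unadjusted p of 0.05, 0 by DESeq2). In the AHR list 0 of 12 were called at either time (2 and 5 under an unadjusted p of 0.05, 0 by DESeq2). Of the 5 treatment control genes (ABCA1, ABCG1, SREBF1, PDK4 and ANGPTL4), 4 were lower with T0901317 than with GW3965 at 48 h and none was higher. Whether 10 μM of each agonist gave equal LXR activity was not tested.

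The responses changed between 24 and 48 h for several genes when the difference itself was tested over all 32 libraries. With GW3965 6 of 53 tested genes differed (all genes: 12.9%), with SULT1A1, SULT1A3 and SULT1A4 higher and CYP1B1, CYP2B6 and CYP3A5 lower at 48 h relative to 24 h. With T0901317 12 differed (all genes: 10.5%), namely CYP2U1, SULT1A3, SULT1A4 and 7 UGT1A rows upward and CYP2B6 and CYP3A5 downward. The UGT1A rows share counts. Outside that locus 44 genes were tested, and 3 upward and 2 downward were near the share of all genes. With rosiglitazone 1 differed, CYP3A5 upward by 0.66 (all genes: 1.46%). For GW3965 the share was below that of all genes. The rosiglitazone result was lost without rosiglitazone 48 h replicate 3 (0.54, adjusted p = 0.00696), the CYP2B6 result for T0901317 without T0901317 24 h replicate 1 (-0.60, adjusted p = 0.0286), and the SULT1A1 result without any 1 of 10 libraries (0.75 to 0.93, adjusted p 0.0105 to 0.0292).

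The DMSO libraries themselves differed between the times, which bears on each of these contrasts. At 48 h against 24 h, 11 of 53 tested genes were higher and 2 lower in DMSO, near the share of all genes in either direction (20.4%). The share of all genes called higher alone was not computed. Of the 11 higher genes, 6 were xenobiotic CYPs: CYP2B6 was 8.39-fold higher, CYP3A4 5.36-fold, CYP3A7 3.56-fold, CYP2C19 3.39-fold, CYP2C18 2.97-fold and CYP3A5 2.76-fold. CYP2J2 (4.20-fold), CYP4V2 (2.20-fold), CYP4F12 (1.91-fold) and CYP20A1 (1.90-fold) were higher as well. SULT1E1, the estrogen sulfotransferase, had no counts in the 4 DMSO libraries at 24 h and 4, 7, 22 and 27 counts at 48 h, which is at least 21.1-fold higher against a floor of 3 counts over the group. SULT1A3 was 0.385-fold and SULT1A4 0.524-fold. The call for CYP2J2 was lost without any 1 of the 24 h DMSO libraries or 48 h replicate 1 or 3 (log2 difference 1.61 to 2.14), that for CYP3A4 without 24 h replicate 1, 2 or 4 or 48 h replicate 3 (1.71 to 2.44), and that for CYP3A7 without 24 h replicate 2 or 48 h replicate 3 (1.35 to 1.59). Hours in culture and any other difference between the 24 and 48 h sets cannot be told apart. The rise of SULT1A3 with the LXR agonists at 48 h thus stood against a DMSO level that was lower than at 24 h: its GW3965 mean was 77.6 CPM at 24 h and 79.4 CPM at 48 h, while DMSO went from 82.4 to 32.2 CPM. For CYP2B6 the reverse held, since all groups were higher at 48 h.

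The partners of the enzymes were followed in a list of 18 genes, which supply electrons, cofactors and donor sugars or sulfate or cleave the products. At 24 h 0 were called with GW3965 (6 under an unadjusted p of 0.05) and 0 with T0901317 (1), and DESeq2 called 0 for both. Rosiglitazone at 24 h lowered PAPSS2, which makes the sulfate donor, and SLC35D1, which carries UDP-glucuronic acid into the endoplasmic reticulum (both -0.71, all genes: 3.13% lower). At 48 h GW3965 raised 4 (CYB5A, CYB5R3, EPHX2 and SLC35B2, median 0.28, all genes: 8.27% higher) and T0901317 raised 5 (CYB5A, CYB5B, EPHX2, SLC35B2 and SLC35D1, median 0.22, all genes: 6.99% higher). Rosiglitazone raised POR and UGDH, which makes UDP-glucuronic acid, and lowered PAPSS1, PAPSS2 (-0.96) and SLC35D1 (-1.02), with a median of -0.16 (all genes: 4.79% higher and 7.4% lower). In the NRF2 list of 9 oxidative stress genes, 6 rose with rosiglitazone at 48 h (median 0.86), among them HMOX1, while each LXR agonist raised 3 and lowered 2, SRXN1 and TXNRD1 in both cases, against the same shares of all genes and 7.78% lower with GW3965 and 7.28% lower with T0901317. At 24 h 0 of 9 were called with the LXR agonists (7 and 6 under an unadjusted p of 0.05, 0 by DESeq2). Rosiglitazone at 24 h raised AKR1B10 and HMOX1 and lowered AKR1C1 and AKR1C2 (all genes: 1.81% higher and 3.13% lower).

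CYP4A11, CYP4X1 and CYP4Z1, which are fatty acid CYPs of 1 cluster, followed single libraries and not drugs. CYP4A11 held 48 to 120 counts in 7 of the 32 libraries (DMSO replicates 3 and 4, GW3965 replicate 4 and rosiglitazone replicates 1 and 2 at 24 h, GW3965 replicate 3 and T0901317 replicate 1 at 48 h) and at most 6 counts in the other 25. In the same 7 libraries CYP4X1 held 52 to 144 counts, against at most 13 elsewhere, and CYP4Z1 8 to 20, against at most 5. The ratio of CYP4X1 to CYP4A11 in the 7 libraries stayed between 1.08 and 1.2. These libraries came from every drug group and from DMSO, and the source of the counts was not tested. Without these 7 libraries, chosen after their values were seen, GW3965 and T0901317 still raised CYP4F3 and CYP4F12 at 24 h, while CYP4F11 with GW3965 just missed the threshold (log2 fold change 1.28, adjusted p = 0.0109). For rosiglitazone at 24 h, where 4 libraries were left out, 5 genes were called higher and 0 lower, with CYP26B1 (2.22, adjusted p = 0.0633) and CYP2W1 (-0.98, adjusted p = 0.0671) no longer called.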

How the data were processed

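Poly-A RNA of 32 HT29 libraries was sequenced by the authors after fragmentation of cDNA with a transposase kit. The deposited gene tables, 1 for 24 h and 1 for 48 h, hold whole-number read counts per Ensembl gene for 16 libraries each, not normalized. The submitters' processing notes name TopHat, Bowtie, Cufflinks, MACS and the build hg19, without roles, and how the genes were counted is not given in the sources used here. Reads shared by near-identical or overlapping genes may therefore have been dropped, split or counted more than once.

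The 88 genes were chosen by symbol. The members and the companion lists were chosen with earlier results of these data known. One companion list is not reported here. Groups came from the labels, no per-sample column was left unused (0 columns), and no 2 libraries of a group were alike within sampling noise. Whole tables were filtered with filterByExpr, scaled with TMM and fitted with the quasi-likelihood test of edgeR 4.0.16 (limma 3.58.1, R 4.3.3) over the 16 libraries of a time point, leaving 21781 genes at 24 h and 22470 at 48 h. A fit over all 32 libraries (23140 genes) gave the differences between times. All adjusted p-values in the text are edgeR quasi-likelihood values with Benjamini-Hochberg adjustment over all genes tested, and a gene was called below 0.01 where it also changed 1.5-fold or more. SE is the log2 fold change divided by the square root of its F statistic. DESeq2 1.42.0, other scalings, filters, cutoffs, sets of samples and left-out libraries were alternatives. Ratios of few counts have exact intervals (95%), which cover counting error only, as do floors of 3 counts. Genes with values in every library were the 3 largest called increases and decreases per comparison whose mean log2 CPM was 0 or more, plus CYP1A1, CYP1B1, CYP3A4, CYP3A5, CYP2B6, UGT1A6 and CYP51A1, and every called gene is named. Promoter windows were RefSeq sequence, and 63 of 88 symbols matched. Scripts were tested on simulated data. Python 3.11.15, pandas 2.3.3 and matplotlib 3.10.9 were used for tables and figures. ChIP-seq peaks near these genes were not used here, since no annotation of hg19 was at hand.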

Additional observations from a re-analysis of the deposited data

Results flagged for a closer look

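In 15 genes with values given for every library, each of the 8 groups was searched for 1 library that stood apart from the other 3 by Dixon's test. This gave 5 of 120 groups, and chance alone flags about 1 in 20 groups. CYP1A1 was at 0.233 CPM in T0901317 48 h replicate 1, CYP3A4 at 1.08 CPM in DMSO 48 h replicate 3, CYP4F12 at 14.3 CPM in rosiglitazone 48 h replicate 1, CYP4F3 at 0.949 CPM in DMSO 24 h replicate 4 and UGT1A6 at 166 CPM in GW3965 24 h replicate 1.

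The response to a drug differed between 48 and 24 h for 19 pairs of gene and drug in the test of the interaction (edgeR, adjusted p under 0.01 and at least 1.5-fold). For GW3965 the log2 differences of the responses (48 h minus 24 h) were 1.39 for SULT1A3, 1.27 for SULT1A4, 0.90 for SULT1A1, -0.66 for CYP3A5, -0.72 for CYP1B1 and -0.88 for CYP2B6. For T0901317 they were 1.71 for CYP2U1, 1.03 for SULT1A4, 0.92 for SULT1A3, -0.70 for CYP3A5 and -0.82 for CYP2B6. The UGT1A rows, which share counts, gave 0.62 for UGT1A3, UGT1A5, UGT1A6, UGT1A7 and UGT1A9 and 0.61 for UGT1A4 and UGT1A8. For rosiglitazone the value was 0.66 for CYP3A5. Both the drug and the DMSO libraries enter each difference: DMSO was 0.385-fold at 48 h against 24 h for SULT1A3, 0.524-fold for SULT1A4, 8.39-fold for CYP2B6 and 2.76-fold for CYP3A5.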

How the results depend on the processing

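Of the values of single genes, 1075 of 1156 under other settings and 1158 of 1240 with a library left out kept their direction and their side of the threshold. The counts of called genes moved by over 1.5 times as follows. With no fold change cutoff GW3965 at 24 h raised 5 genes, GW3965 at 48 h lowered 3, rosiglitazone at 24 h raised 14 and lowered 3, and T0901317 at 48 h lowered 3. With a cutoff of 2, GW3965 at 48 h lowered 0, rosiglitazone raised 4 at 24 h and 6 at 48 h, and T0901317 at 48 h raised 5. With the UGT1A rows summed and the SULT1A rows summed, rosiglitazone raised 4 at 24 h and 9 at 48 h, and T0901317 at 48 h raised 7. With UGT1A rows less the lowest row, T0901317 at 48 h raised 10 and rosiglitazone at 24 h lowered 2. With library size alone rosiglitazone at 24 h raised 4 and lowered 2, and its response differed between times for 0 genes. With no filter on low counts these were 2 lowered and 2 that differed. DESeq2 gave 2 lowered with rosiglitazone at 24 h and 2 that differed between the LXR agonists at 24 h, where a fit of only those groups gave 0. Without the 7 libraries with CYP4A11 counts GW3965 at 48 h lowered 2, rosiglitazone at 24 h raised 5 and lowered 0, and its response differed between times for 0. The cause was not tested.

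With 1 library left out, the genes called ranged from 3 to 4 higher and 0 lower for GW3965 at 24 h, 3 higher and 0 lower for T0901317 at 24 h, 6 to 12 higher and 1 to 3 lower for rosiglitazone at 24 h, 10 to 12 higher and 1 to 2 lower for GW3965 at 48 h, 12 to 16 higher and 0 to 1 lower for T0901317 at 48 h, and 16 to 18 higher and 5 to 8 lower for rosiglitazone at 48 h. The agonists differed in 1 to 2 genes at 24 h and 3 to 5 at 48 h, responses between times in 5 to 7 (GW3965), 10 to 12 (T0901317) and 0 to 3 (rosiglitazone), and DMSO between times in 10 to 14.

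The log2 fold changes that changed sign were near 0 and had not been called. CYP1B1 with T0901317 at 24 h was -0.0029 without the libraries with CYP4A11 counts. CYP3A4 with T0901317 at 48 h was 0.0023 with DESeq2, 0.0081 with library size alone, 0.015 with the replicate block and 0.196 without the libraries with CYP4A11 counts, and ran from -0.33 to 0.68 with 1 library left out. CYP51A1 with GW3965 at 24 h was -0.043 with library size alone and -0.00060 with the replicate block, and ran from -0.034 to 0.036 with 1 library left out. With T0901317 at 24 h and 1 library left out, CYP51A1 ran from -0.095 to 0.0056 and UGT1A6 from -0.045 to 0.0033.

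The replicate numbers did not pair the samples: at 24 h the deviations of same-numbered samples correlated between -0.103 and 0.172, with 2 of 24 pairs over 0.1, and at 48 h between -0.0515 and 0.0976, with 0 over 0.1. With the replicate block GW3965 raised 3 genes at 24 h and 10 at 48 h, and SULT1C2 with GW3965 at 48 h was no longer called (2.10, adjusted p = 0.0107), the only call of a named gene it changed. Genes with few counts, such as CYP3A4 and the UGT2 genes, were limited by depth.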

Other observations

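The pseudogene row CYP51P2 followed the level of its parent: its count was 0.0504 to 0.0725 times that of CYP51A1 in all 32 libraries, and it was not called with any drug. The row of CYP3A7, a fetal CYP3A enzyme, held 0.00105 to 0.0115 times the count of CYP3A5. The SULT1A4 row was 0.556 to 1.19 times that of its neighbour SLX1B, a wider range than the 1.54 to 2.04 times of SULT1A3 to SLX1A.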
